A study of Mus musculus with 16 samples.

Results

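Snord68 and Snord90 are small nucleolar RNAs (snoRNAs) of the C/D class, and their levels are described here over 8 sorted populations of bone marrow blood cells, all from WT mice. They are 2 of 1885 small RNA intervals with reads and 2 of 161 placed in the C/D class, and each was found by the exact GRCm38 coordinates of its GENCODE M21 gene. They were selected on their read counts in these same libraries, as genes that stood high in lymphoid cells, so their levels over the populations are a description and carry no test. The mature populations were T, B, Myeloid and Erythroid cells. The progenitors were CLP, CMP, GMP and MEP, the usual names of the common lymphoid, common myeloid, granulocyte-monocyte and megakaryocyte-erythroid progenitors. Each population had 2 libraries, made from total RNA and size-selected on a gel for short inserts. No treatment is named. Strain, age, the gate of each population and the number or pooling of mice are not given in the sources used here, so the spread between libraries, on which the p-values behind every call rest, may be technical.

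C/D snoRNAs guide 2'-O-methylation of other RNAs, mostly ribosomal RNA. A guide stretch just before the D box, or before its internal copy D', pairs with the target, and boxes C and D hold the methyltransferase fibrillarin and its partner proteins. Most vertebrate C/D snoRNAs are cut from introns of other genes, so their amount depends on transcription of the host and on how well the released RNA is kept. Rpl13, the host of Snord68, encodes a protein of the large ribosomal subunit. Rc3h2, the host of Snord90, encodes Roquin-2, an RNA-binding protein that with its relative Roquin-1 limits costimulatory receptor transcripts in T cells.

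Snord68 (ENSMUSG00000064450, chr8:123103038-123103123, plus strand, GRCm38) lies in intron 3 of 5 of the protein-coding Rpl13 transcript of 6 exons, in an intron of 196 bases, 59 bases before the next exon. Snord90 (ENSMUSG00000077756, chr2:37400047-37400157, minus strand) lies in intron 5, 6 or 7 of the 3 protein-coding Rc3h2 transcripts that hold it, always the same intron of 575 bases, 93 bases before the next exon. Both were placed in the C/D class by name, and their GENCODE sequences are shown because boxes typical of that class can be read in them. Capitals mark each TGATGA (the core of box C) and each CTGA (box D).
Snord68: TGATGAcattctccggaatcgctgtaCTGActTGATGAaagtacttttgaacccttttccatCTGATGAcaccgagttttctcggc
Snord90: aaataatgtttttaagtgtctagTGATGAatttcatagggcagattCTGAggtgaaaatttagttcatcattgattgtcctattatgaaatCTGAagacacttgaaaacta

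Both sequences hold CTGA at 2 positions, at bases 27 and 63 in Snord68 and at bases 47 and 92 in Snord90. TGATGA starts at base 1, 33 and 64 in Snord68, where the last overlaps the CTGA at base 63, and at base 24 in Snord90. On the strand of the gene, 59 of the 83 listed C/D snoRNAs that carry a Snord name (71.1%) had both motifs, 74.7% had CTGA at 2 or more positions and 7.23% had TGATGA at 2 or more. In Snord90 the 8 bases aagtgtct before box C (bases 14 to 21) are the reverse complement of agacactt after the last CTGA (bases 96 to 103), which can form the closing stem typical of the class. The Snord68 interval begins at the TGATGA itself, so no such stem could be read there. RefSeq's GRCm38.p6 entries of these genes are shorter, 48 bases for Snord68 and 68 for Snord90, so levels per length depend on the interval used.

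In the 20 bases before each CTGA, the longest run able to pair with the annotated 1849-base rRNA of GENCODE without G-U pairs was 8 bases in Snord68 and 6 in Snord90, and only 2 of the 161 C/D snoRNAs had a run of 10 or more. The median over the 161 was 7 bases, so this search hardly set any C/D snoRNA apart. It cannot tell whether either gene pairs with this rRNA, and no conclusion about targets is drawn from it. The 28S sequence was not used here. Neither snoRNA had a similar copy in another annotated gene by blastn: the only other hit was an Rpl13 transcript that keeps the intron of Snord68. The annotated gene Gm20388 also spans Snord68 on the same strand. No gene is annotated on the opposite strand over either interval. Whether strand was used in counting is not given in the sources used here.

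Total counts ran from 8197458 to 41799906 per library, and Snord68 drew at least 409627 counts and Snord90 at least 5709 in each library. On read pairs, counting error was at most 0.221% for Snord68 and 1.87% for Snord90, below the spread between most library pairs, and it covers counting alone, since the reads carry no molecular identifiers. The populations could be checked only against microRNA markers. All 15 microRNAs on the marker lists had reads and passed the low-count filter, and they did not all follow the labels. The progenitor markers Mir126a, Mir99a and Mir125b-1 were highest in CMP, but Mir126a had 12.5 CPM in T, above its 7.04 in CLP, 8.70 in GMP and 9.36 in MEP. Mir125a had only 1.42 ± 0.181 CPM in T and 1.35 ± 0.432 in CMP (SD, n = 2 each), too close to order these 2. Of the lymphoid markers, Mir181a-1, Mir181a-2 and Mir155 were highest in T, while Mir181b-1 and Mir181b-2 were highest in CMP. The summed lymphocyte markers Mir150 and Mir342 were at 324 to 348 TMM-scaled CPM in T and 87.9 to 108 in B. They were at 53.3 to 60.1 in Myeloid and 11.9 to 47.2 elsewhere. TMM-scaled CPM are counts per 1000000 counts of a library, after its total was scaled by the trimmed mean of M values. The summed myeloid markers Mir223 and Mir142 were highest in Myeloid at 1060 to 1104, followed by 354 to 733 in Erythroid, against its label, and were 404 to 457 in T and 189 to 197 in B. The summed erythroid markers Mir451a and Mir144 were 114 to 184 in Erythroid and 127 to 187 in MEP, but also 124 to 134 in CLP, against its label, and none of these 6 markers was at 0 in any library. What part cells of another type had in the levels below was not tested. The 2 libraries of GMP, MEP and Erythroid stood apart over abundant features, with an SD of the log2 ratio of 0.446, 0.523 and 0.503, against 0.0469 to 0.1003 in the other pairs.

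Snord68 was among the most abundant small RNAs, and it stood highest in T cells, next in B cells and within a narrow band everywhere else. It had 100535 and 109379 TMM-scaled CPM in the T libraries and 79602 and 83123 in the B libraries. Both pairs lay above all 12 other libraries, and the T pair lay above the B pair. In the other mature cells Snord68 had 49111 and 50333 in Myeloid and 51314 and 52592 in Erythroid. In the progenitors it had 49940 and 50587 in CLP, 42648 and 44408 in CMP, 50599 and 53615 in GMP and 48475 and 48700 in MEP. These 12 libraries ran together, with population means between 43528 ± 1245 (CMP) and 52107 ± 2132 (GMP; SD, n = 2 each), a 1.197-fold range.

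The order of the Snord68 means was T, B, GMP, Erythroid, CLP, Myeloid, MEP and CMP. With TMM, GMP and Erythroid differed by 154 CPM and their libraries overlapped, as did those of CLP and Myeloid, which differed by 541. T over B was 1.29-fold and B over GMP 1.56-fold, and no later step was above 1.12-fold. Below T and B the order moved with the scaling: Myeloid came next with library totals, without the 3 most abundant features and on C/D counts, and CLP with relative log expression (RLE) factors, so no order is read among these 6. CLP, the lymphoid progenitor, did not share the lymphoid level: it exceeded the mean of CMP, GMP and MEP by 0.07 (log2), with overlapping libraries and a pooled SD between libraries of 0.045. In bulk RNA of a sorted population, fewer cells at a high level and less RNA in every cell cannot be told apart.

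Snord90 was much scarcer and varied more. It had 2235 and 2372 TMM-scaled CPM in the T libraries and 1668 and 1541 in the B libraries. Again the T pair lay above the B pair, and both lay above the other 12 libraries. Unlike Snord68, Snord90 had a middle step in Myeloid cells, with 958 and 915, above all 10 remaining libraries. Erythroid had 716 and 770. In the progenitors Snord90 had 639 and 604 in CLP, 594 and 601 in CMP, 633 and 625 in GMP and 665 and 709 in MEP. These 5 populations ran from 598 ± 4.49 (CMP) to 743 ± 38.0 (Erythroid; SD, n = 2 each), a 1.24-fold range.

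The order of the Snord90 means was T, B, Myeloid, Erythroid, MEP, GMP, CLP and CMP. Only GMP and CLP had overlapping libraries among neighbours, and they differed by 7.67 CPM. T over B was 1.44-fold, B over Myeloid 1.71-fold and Myeloid over Erythroid 1.26-fold, and no later step was above 1.09-fold. T, B and Myeloid kept these places under all 5 scalings tried, and the order of the other 5 moved with the scaling. CLP was at -0.03 (log2) from the mean of CMP, GMP and MEP, with overlapping libraries, and that sign turned with RLE factors (0.09). For both genes the label lymphoid-high thus describes the mature T and B cells and not CLP, and for Snord90 it leaves out the Myeloid step.

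**Figure D1:**
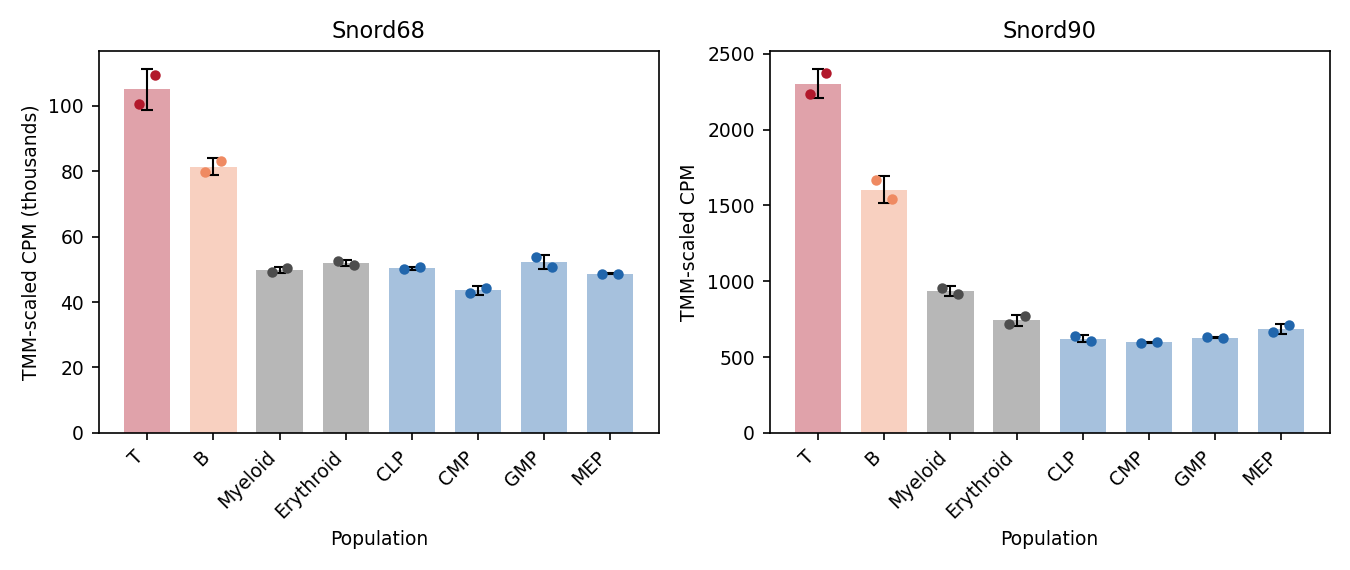
Level of Snord68 (left, in kilo-CPM) and Snord90 (right, in CPM), TMM-scaled, in each population; points are libraries, bars are means and error bars are the SD of 2 libraries. T and B stand above all other populations in both panels, and Myeloid, at 937 ± 30.4, stands above the remaining 5 for Snord90 alone.

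Per kilobase of the annotated interval, Snord68 ranked 4 among the 139 tested C/D snoRNAs in T and 5 in each of the other populations, so its rank hardly moved with its level. Snord90 ranked 47 in T, 55 in B, 65 in Myeloid and 71 to 76 elsewhere. As a share of all counts, Snord68 held 8.16% and 8.37% in the T libraries, 6.72% and 6.70% in the B libraries and 4.85% to 5.66% in the other 12. Snord90 held 0.181% in both T libraries, 0.141% and 0.124% in the B libraries, 0.110% and 0.103% in the Myeloid libraries and 0.0657% to 0.0770% in the other 10.

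Set against the other 6 populations, B and T together averaged 0.91 (log2) higher for Snord68, or 1.88-fold, and 1.47 higher for Snord90, or 2.77-fold, with pooled SDs between libraries of 0.045 and 0.057. The lowest B or T library exceeded the highest other library 1.48-fold for Snord68 and 1.61-fold for Snord90. Over all 749 features that passed the low-count filter, 5.47% had all 4 B and T libraries above the other 12, and 3.07% also had T above B. By edgeR (quasi-likelihood, Benjamini-Hochberg adjusted p under 0.05), 17.4% of the 749 features were higher in B and T and 32.2% lower, and 61.1% differed among the 8 populations. T and B differed in 28.2% of features, and CLP differed from CMP, GMP and MEP in 7.74%. The last 2 shares rest on few libraries: the 211 features called between T and B were 120 without B library 1 or T library 2 and 138 without B library 2, and the 58 called for CLP were 9 without CLP library 1, 7 without CLP library 2 and 34 without CMP library 1. The share for T and B also depends on populations outside the comparison, since the fit, filter and scaling use all libraries. Without GMP, MEP and Erythroid, whose pairs stood apart, 334 features were called between T and B. What caused that move was not tested. Nothing is read from the 2 genes standing in any set of this paragraph, since their levels chose them.

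The size of the difference depended on how libraries were scaled, its direction did not. Library totals moved the median of all features by -0.38 (log2) against TMM, and with them B and T averaged 0.49 higher for Snord68 and 1.05 higher for Snord90. As a share of C/D snoRNA counts alone the differences were 0.41 and 0.97. C/D snoRNAs held 86.7% of counts in T, 85.2% in B and 76.6% to 83.6% in the other populations, and the part of this make-up in the TMM values was not tested. The 4 B and T libraries stayed above the other 12 under each of the 5 scalings tried for both genes. The narrowest margin was 1.13-fold for Snord68 and 1.08-fold for Snord90, both on C/D counts. With library totals 1.47% of features had this non-overlap, and on C/D counts 0.801%. The features that kept it under all 5 scalings numbered 6: Snord68, Snord90, Snord49a, Snord57, the H/ACA snoRNA Gm22676 and Mir150.

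Among the 139 tested C/D snoRNAs, ordered by the TMM difference between B and T and the other 6 populations, Snord90 ranked 2 and Snord68 ranked 7. The ranks were the same under library totals, but rescaling moves all features by nearly the same amount. They could hardly change, so this is no sign of stability. The class as a whole went both ways: of the other 137, 54 were higher (39.4%) and 43 lower by edgeR (adjusted p under 0.05), with a median of 0.02. Over all other 747 features 128 were higher (17.1%) and 241 lower, with a median of -0.23. Of the other 34 tested C/D snoRNAs inside ribosomal protein genes, the kind of host Snord68 has, 16 were higher (47.1%, against the same 17.1%) and 8 lower, with a median of 0.08. Under library totals the medians were -0.40 for the other C/D snoRNAs, -0.61 over all other features and -0.34 for those in ribosomal protein genes. No other snoRNA in Rpl13 or Rc3h2 was listed, so the hosts offer no second snoRNA to compare. The one other listed interval there, Mir7079 in Rpl13 (chr8:123104975-123105043), had 6 counts over all libraries.

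**Figure D2:**
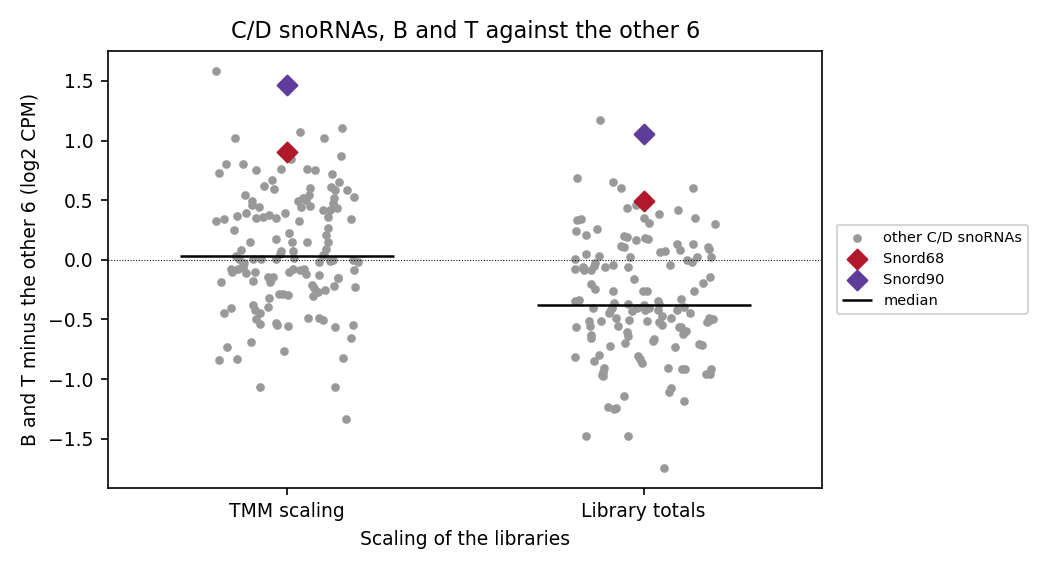
Difference in log2 CPM between B and T and the other 6 populations for each of 139 tested C/D snoRNAs, under TMM scaling (left) and library totals (right); grey points are other C/D snoRNAs, diamonds are Snord68 and Snord90 and the black line is the median. Snord68 lies at 0.91 and 0.49 and Snord90 at 1.47 and 1.05, while the median moves to -0.38 under library totals.

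The ratio of the 2 genes needs no scaling of libraries, and it was lower in Myeloid than in the other non-lymphoid cells. There were 44.98 and 46.1 counts of Snord68 for each count of Snord90 in the T libraries, 47.7 and 53.9 in the B libraries and 51.3 and 55.0 in the Myeloid libraries. Erythroid had 73.4 and 66.7. The progenitors had 78.1 and 83.8 (CLP), 71.8 and 73.9 (CMP), 84.7 and 80.9 (GMP) and 72.9 and 68.7 (MEP). The 6 T, B and Myeloid libraries thus ran from 44.98 to 55.0 and the 10 others from 66.7 to 84.7, without overlap. This grouping was chosen after the values were seen and has no test. Snord90 alone splits the libraries this way with TMM, as 2.27% of features do, so the split of the ratio is no separate finding. Within the split the ratio did not follow Snord90 alone. B and Myeloid had mean ratios of 50.8 and 53.1, at Snord90 levels of 1605 and 937 TMM-scaled CPM. How often ratios of other pairs of features do so is not given here. On the log2 scale the ratio was 0.56 lower in B and T than in the other 6 populations.

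**Figure D3:**
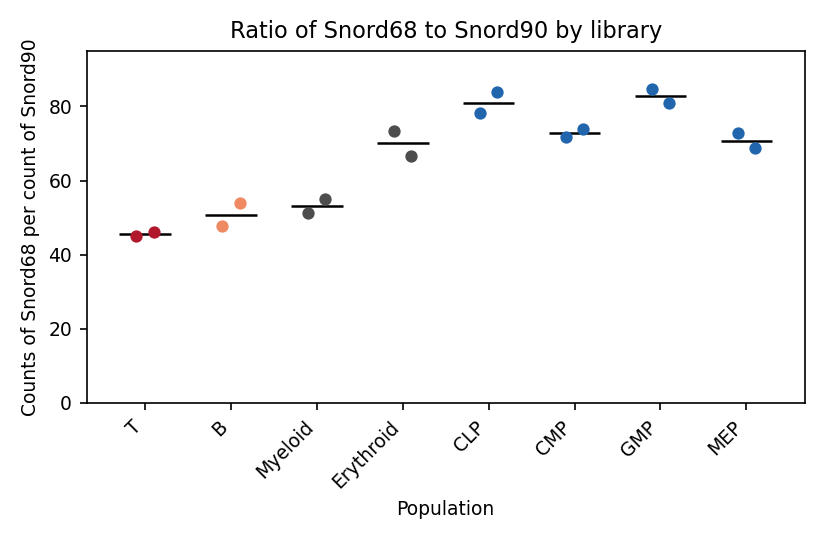
Counts of Snord68 per count of Snord90 in each library (points) with the mean of each population (line). T, B and Myeloid libraries lie between 44.98 and 55.0 and all others between 66.7 and 84.7.

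Along the myeloid branch the genes parted. Snord90 was 1.49-fold higher in Myeloid than in GMP (0.57, log2), without overlap, as 35.0% of all features were. It was 1.59-fold higher with library totals. Snord68 was at -0.07 between Myeloid and GMP, without overlap, as 31.6% of features were in that direction, and its sign turned with library totals (0.03). All 6 T, B and Myeloid libraries stood above the other 10 for Snord90, as for 2.27% of features. Along the erythroid branch both genes were slightly above MEP in Erythroid, at 0.10 for Snord68 and 0.11 for Snord90, without overlap, as 20.0% of features were. With library totals the libraries overlapped for both genes and the differences were 0.04 and 0.05. The microRNA share of counts was 3.87% ± 0.0957 in Myeloid and 1.86% ± 0.658 in GMP, and the part of this shift in library make-up in the Myeloid values was not tested.

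The features whose levels followed these genes most closely were other snoRNAs, but the share of snoRNAs among the features compared is not given here. Likeness was the Pearson correlation of log2 TMM-scaled CPM over the 8 population means, among 307 features that averaged 10 CPM or more and spanned 0.5 or more, and it is a description, since all points come from the same libraries and scaling. Snord68 was most like Gm23969, a snoRNA in Rpl7a that the box rule left unclassified (r = 0.99), followed by Snord49a (0.97), Snord16a in Rpl4 (0.96), Snord90 (0.96) and Gm22858 in Wdr43 (0.95). Snord90 was most like Gm25632 in Prrc2b (0.99), followed by Snord68 (0.96), Snord57 in Nop56 (0.96), Snord49a (0.95) and Gm23969 (0.95).

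The shared shape was a high T and B level over a flat base. Gm23969 had 29967 ± 1051 CPM in T and 25799 ± 196 in B, and 17546 to 19339 elsewhere. Snord16a had 848 ± 7.39 in T and 820 ± 24.1 in B, and 433 to 546 elsewhere, with Myeloid at 546 ± 3.08 and GMP at 542 ± 46.5. T and B were level for Snord49a, at 165878 ± 5003 and 164973 ± 9467, where Snord68 and Snord90 stood higher in T. Gm25632 was the one closest to Snord90 in its Myeloid step, with 31.1 ± 4.77 in T, 25.6 ± 2.64 in B, 16.7 ± 0.665 in Myeloid and 12.3 to 14.1 in the other 5. Its counts were low, so that step is less firm than that of Snord90. Snord57 had 13243 ± 687 in T and 8915 ± 5.86 in B, and in Myeloid 5281 ± 106, within the 4520 to 5586 of the others.

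**Figure D4:**
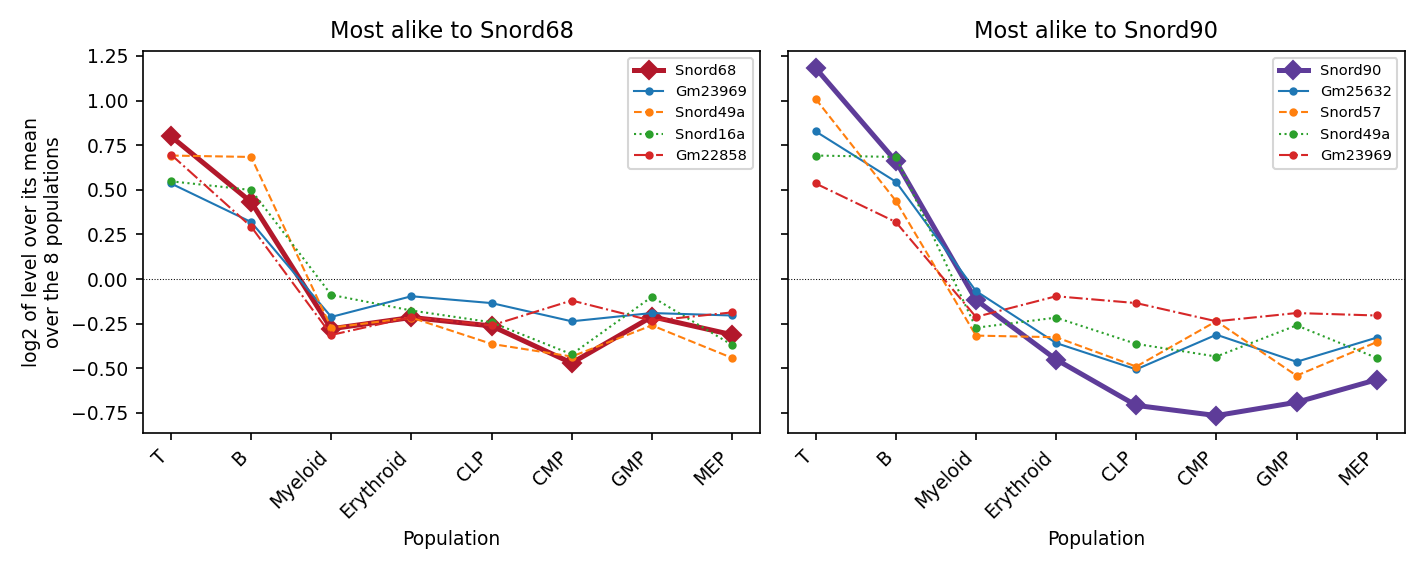
Level of Snord68 (left) and Snord90 (right, thick lines) and of the most alike features other than each other (thin lines), as log2 of the mean TMM-scaled CPM of a population over the mean of the 8 populations; lines join populations only to guide the eye. T and B lie above the other 6 in every line, and in Snord90 and Gm25632 Myeloid lies above the remaining 5. In Snord16a it does so only narrowly, at 546 against 542 in GMP.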

How the data were processed

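Small RNA libraries of 16 samples were used. As deposited by the authors, each value is an unnormalized read count of 1 annotated interval. The submitters' processing notes name Trimmomatic 0.38, Bowtie2 2.3.4.1 and GRCm38; the counting program, annotation, strand use and parameters are not given in the sources used here. Files list only intervals with reads, and a missing interval was taken as 0; 89.0% to 93.2% of values per library were even, as when both mates are counted.

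Intervals were matched to GENCODE M21 by exact coordinates (1884 of 1885; the other is a 45S pre-rRNA accession). C/D snoRNAs were taken by name or by boxes and length. Counts were tested with edgeR 4.0.16 (R 4.3.3): filterByExpr at a minimum count of 10, TMM, quasi-likelihood fit with 1 mean per population (8 residual degrees of freedom), Benjamini-Hochberg over 749 features. Log2 CPM used a prior count of 2. Sequences are GENCODE transcripts; copies were searched with blastn 2.17.0 (word size 11). The fit was run on simulated counts with the same spread for every feature and population. The real library pairs differed in spread, so that run is no check of the calls given here. Alternatives included RLE, library totals, C/D totals, other filters, DESeq2 1.42.0 and leaving out libraries.

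The genes and lists were chosen with earlier results of these data known. Named features were the 2 genes, other snoRNAs of their hosts and the 5 most alike features each; Mir7079 and the features that kept their non-overlap under every scaling were named after their values were seen.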

Additional observations from a re-analysis of the deposited data

Results flagged for a closer look

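With TMM, Snord68 lay below both GMP libraries in both Myeloid libraries and above both MEP libraries in both Erythroid libraries, so the branches moved opposite ways; the log2 differences (-0.07 and 0.10) were -0.16 apart. This difference between branches was not tested, and the Myeloid difference turned positive under library totals. The Erythroid and MEP libraries overlapped with RLE, with library totals and with totals without the 3 most abundant features, so the separation held on that side only with TMM and on C/D counts.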

How the results depend on the processing

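For B and T minus the other 6, the differences (log2) of Snord68 and Snord90 were 0.907 and 1.469 with TMM. They were 1.053 and 1.615 with RLE, 0.492 and 1.055 with library totals, 0.688 and 1.251 with totals without the 3 most abundant features, 0.411 and 0.973 on C/D counts, and 0.996 (Snord68) without GMP, MEP and Erythroid, where B and T are set against CLP, CMP and Myeloid alone. Leaving out each library gave 0.891 to 1.078 for Snord68 and 1.458 to 1.649 for Snord90, and -0.607 to -0.519 for their log2 ratio. T minus B was 0.301 and 0.457 with library totals, 0.277 and 0.432 on C/D counts, 0.273 and 0.429 without GMP, MEP and Erythroid, and 0.224 to 0.422 (Snord68) and 0.328 to 0.666 (Snord90) with a library left out. It was lowest for Snord68 without CMP library 1 and for Snord90 without B library 2 (0.366 and 0.522 with all libraries).

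CLP minus CMP, GMP and MEP was 0.198 and 0.094 with RLE, and 0.119 (Snord68) without the 3 most abundant features. Without GMP, MEP and Erythroid it becomes another comparison, CLP minus CMP alone, at 0.304 and 0.153. With a library left out it was 0.083 to 0.190 for Snord68 and -0.035 to 0.080 for Snord90; the sign for Snord90 thus changed. Myeloid minus GMP for Snord68 turned to 0.032 with library totals, 0.027 without the 3 most abundant features, 0.050 on C/D counts and 0.012 without GMP library 1, and ran from -0.194 to 0.012 with a library left out. For Snord90 it was 0.672, 0.667 and 0.690 under these scalings, and 0.479 to 0.620 with a library left out. Erythroid minus MEP was 0.038 and 0.054 with library totals, 0.026 and 0.042 without the 3 most abundant features, and 0.058 to 0.165 and 0.067 to 0.218 with a library left out. Leaving out a library of a population outside the comparison does not change the counts compared, for T minus B too. Such moves arise only through the recomputed filter and scaling. What caused the other moves was not tested.

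Features called for B and T were 371 (130 higher, 241 lower), and 157 and 182 with RLE, 59 and 383 with library totals, 97 and 317 without the 3 most abundant features, 50 and 413 on C/D counts and 164 and 196 with DESeq2. They were 214 (103 higher, 111 lower) at a mean of at least 10 CPM, where fewer features were tested. With libraries of a population summed they were 43 of 820 tested, 35 higher and 8 lower, so the balance of directions turned. With a library left out they were 282 to 382. T against B gave 211, 334 without GMP, MEP and Erythroid, and 120 to 232 with a library left out (120 without B library 1 or T library 2, 138 without B library 2). CLP gave 58, 92 without the 3 most abundant features, 34 with no low-count filter, and 7 to 86 with a library left out (9 and 7 without CLP library 1 and 2, 34 without CMP library 1). CLP against CMP alone, with GMP, MEP and Erythroid left out, gave 317. All populations gave 458, 287 at a mean of at least 10 CPM and 389 to 475 with a library left out. Non-overlap of B and T held for 41 features, 11 with library totals, 21 without the 3 most abundant features, 6 on C/D counts and 37 to 61 with a library left out. Without GMP, MEP and Erythroid, 65 features had the B and T libraries above the 6 that then remain. A run of 9 pairing bases before a CTGA was found in 19 C/D snoRNAs, and of 10 in 2.

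Replicate numbers are shared by the populations but need not pair libraries: over 157 abundant features the deviations of same-numbered libraries correlated from -0.93 to 0.88 over 28 pairs of populations, above 0.1 in 21, and 7 of 8 populations were nearer their own number on average. With the replicate block 372, 209, 57 and 442 features were called in these comparisons. The differences of the 2 genes and their ratio (-0.563) cannot change under the block, since each population has 1 library of each number, so this is no sign of stability.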
